A study of Sus scrofa with 31 samples.

Results

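CCL8, XCL1 and CCL5 are chemokine ligands, and their transcripts were followed through 31 RNA-seq samples of pig microglia, pig lung macrophages and pig brain tissue. Of 5 ligands named for study, these 3 had an Ensembl identifier in the gene name column of the study's supplementary tables. CCL2 and CXCL8 had none there and were left out, so 3 of the 31907 genes in the count table are described. CCL8 and XCL1 were chosen by their measured levels, which differed between microglia and alveolar macrophages or whole tissue, so these 2 contrasts are given for all members as levels and fold changes without a test. Tests are given only for differences between the brain regions from which microglia came.

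All samples came from male piglets of a Large White × Landrace × Duroc cross, taken at about weaning age, each from a different litter, and sedated and anaesthetised for imaging before they were killed. Litters were housed in standard or freer pens, and the labels do not say which pig came from which. The groups of microglia were cerebellar microglia, frontal cortex microglia and hippocampal microglia (n = 8 each), all sorted from dissociated brain as CD11b-high cells with low CD45. Alveolar macrophages (n = 3) were sorted from lung lavage as F4/80+ cells with low CD163. Hippocampal tissue (n = 4) was homogenised whole and extracted with another kit. The labels name 15 pigs by tag number, and 9 of these gave more than 1 sample. A total of 18438494 to 43477403 counts was assigned to genes per sample, and 3 counts, the limit that a count of 0 allows, corresponded to a mean of 0.106 CPM (counts scaled to a common library total) in hippocampal microglia. The 9 microglia markers summed to 3930 to 8090 CPM in the microglia samples and to at most 391 CPM in alveolar macrophages, and the 4 alveolar macrophage markers summed to at least 619 CPM in those cells. In these bulk samples, fewer cells of a type and less RNA per cell cannot be told apart.

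Chemokines are small secreted proteins that bind to receptors on leukocytes and direct their movement. They are classed by the cysteines near the start of the mature protein: CC chemokines such as CCL8 and CCL5 have adjacent cysteines, and the C chemokine XCL1 lacks one of the paired cysteines. CCL8, also called MCP-2, attracts monocytes and other leukocytes. CCL5, or RANTES, is made in quantity by activated T cells and natural killer (NK) cells and acts through receptors that include CCR1. XCL1, or lymphotactin, is made by T and NK cells and acts on the dendritic cells that carry its receptor. Microglia, the resident macrophages of the brain, can themselves produce chemokines when they are stimulated.

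The class difference could be read in the pig genes. CCL8 (ENSSSCG00000040648) lay on the minus strand of chromosome 12, at 40740468 to 40741970 of Sscrofa11.1, and CCL5 (ENSSSCG00000017705) on the plus strand of the same chromosome, at 39652731 to 39659121. XCL1 (ENSSSCG00000006298) lay on the minus strand of chromosome 4, at 82432845 to 82436150. Each had 3 exons in the RefSeq annotation. The stretches below are from the coding strand of exon 2 and surround the cysteine codons that follow the likely signal peptide, taken here as the first 20 codons, with those codons in capitals. They are shown because the spacing of these codons separates XCL1 from the other ligands. The intervals are chr12:40741022-40741083 for CCL8, chr12:39654232-39654290 for CCL5 and chr4:82433944-82434011 for XCL1.
CCL8: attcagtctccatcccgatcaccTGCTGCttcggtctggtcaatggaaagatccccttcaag
CCL5: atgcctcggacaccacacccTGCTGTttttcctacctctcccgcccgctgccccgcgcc
XCL1: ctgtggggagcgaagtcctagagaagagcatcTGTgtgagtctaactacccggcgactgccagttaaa
CCL8 had a pair of cysteine codons at positions 34 and 35 of its 99 codons, counted from the start codon with the stop codon left out, and CCL5 had its pair at positions 33 and 34 of 91. XCL1 had no adjacent pair after codon 20 and had cysteine codons at positions 32 and 69 of 110.

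CCL8 was a microglial transcript in these samples. In cerebellar microglia its level ran from 48.5 to 107 CPM with a median of 88.6. In frontal cortex microglia it ran from 21.0 to 66.3 CPM with a median of 56.9, and in hippocampal microglia from 46.3 to 84.7 CPM with a median of 64.5. Every microglia sample thus held far more CCL8 than the other groups, and the regions overlapped each other. The alveolar macrophages of the 3 pigs had 0.716, 3.32 and 3.39 CPM, and the hippocampal tissue of 4 pigs had 0.389, 0.582, 0.794 and 0.898 CPM. The lowest macrophage sample lay within the range of the tissue, so these 2 groups, the last in the order of levels, did not separate. The order of group means was cerebellar microglia (83.8 CPM ± 19.2, SD, n = 8), hippocampal microglia (63.5 ± 12, n = 8), frontal cortex microglia (51.7 ± 14.8, n = 8), alveolar macrophages (2.48 ± 1.52, n = 3) and hippocampal tissue (0.666 ± 0.227, n = 4). The fitted log2 fold change between microglia and alveolar macrophages was 4.71 (SE 0.42), and that between hippocampal microglia and hippocampal tissue was 6.56 (SE 0.42). For comparison, every microglia sample was above every macrophage sample for 14.3% of the 11633 genes tested, and every hippocampal microglia sample was above every tissue sample for 31.1%. By adjusted p under 0.01 and a change of over 3-fold, 12.2% of the genes were called higher in microglia than in alveolar macrophages, and 11.7% were called over 4-fold higher in hippocampal microglia than in tissue. As CCL8 was chosen for these contrasts, nothing is read from its place among those genes.

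XCL1 showed the opposite arrangement. The 3 alveolar macrophage samples had 32.3, 34.5 and 53.6 CPM, or 1251 to 2034 counts. All 8 hippocampal microglia samples had 0 counts, and 7 of the 8 cerebellar samples had 0. The remaining cerebellar sample, from pig 12583, had 31 counts, equal to 1.29 CPM. In frontal cortex microglia, by contrast, every sample held XCL1 reads. Their levels ran from 0.123 CPM (4 counts) to 4.01 CPM with a median of 1.10, and the most counts in a sample were 104. Of the 4 tissue samples, that of pig 12847 had 4 counts (0.123 CPM) and the others had 0. The lowest macrophage sample was therefore above the highest frontal cortex sample, whereas frontal cortex and cerebellum overlapped, as did cerebellum and tissue. The lowest frontal cortex sample and the highest tissue sample both had 4 counts (0.123 CPM). The mean in alveolar macrophages (40.1 CPM ± 11.7, SD, n = 3) was 27.3 times that in frontal cortex microglia (1.47 ± 1.46, n = 8). Against hippocampal microglia, where the gene was at 0, alveolar macrophages were at least 378-fold higher, with 3 counts per library taken as the floor. No fold is given between hippocampal microglia and tissue, because both were at or near the floor. At its levels in microglia, XCL1 rested on few reads, and these limits cover counting error only.

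CCL5 was also highest in alveolar macrophages, with 126, 245 and 394 CPM. Frontal cortex microglia had 5.03 to 55.1 CPM with a median of 13.5, cerebellar microglia 3.25 to 17.3 CPM with a median of 6.47, and hippocampal microglia 0 to 2.96 CPM with a median of 1.5. The tissue samples had 0.149, 0.153, 0.261 and 1.07 CPM. Alveolar macrophages stood clear of every other group, and hippocampal microglia lay wholly below cerebellar microglia (highest 2.96 against lowest 3.25 CPM), whereas frontal cortex and cerebellum overlapped, as did hippocampal microglia and tissue. The group means fell in the order alveolar macrophages (255 CPM ± 134, SD, n = 3), frontal cortex microglia (19.0 ± 16.1, n = 8), cerebellar microglia (7.58 ± 4.42, n = 8), hippocampal microglia (1.47 ± 0.973, n = 8) and hippocampal tissue (0.409 ± 0.445, n = 4). The fitted log2 fold change between microglia and alveolar macrophages was -5.41 (SE 0.48), where 17.4% of genes had every microglia sample below every macrophage sample and 10.1% were called lower by adjusted p under 0.01 and over 3-fold. Between hippocampal microglia and hippocampal tissue it was 1.82 (SE 0.78). CCL5 was at 0 in the hippocampal microglia of pig 12817, and without that library the last value was 2.02. Without the tissue of pig 12847, the highest of its group, it was 2.92.

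**Figure D1:**
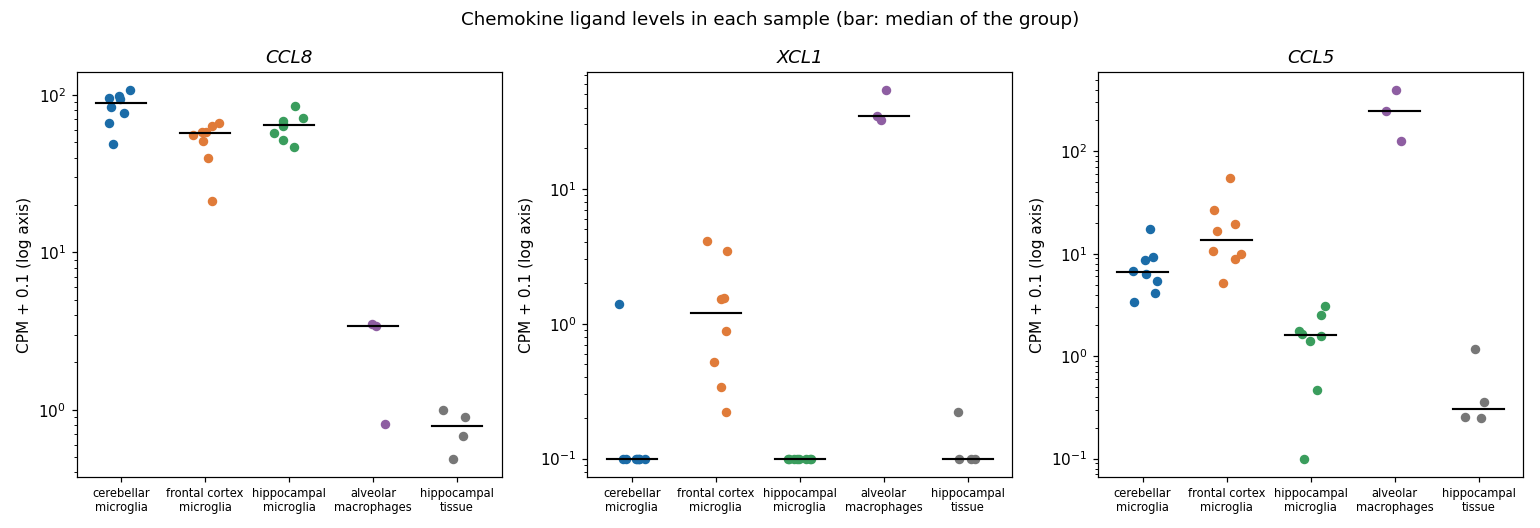
Levels of CCL8, XCL1 and CCL5 in each of the 31 samples, as CPM + 0.1 on a log axis. Each point is a sample and each bar the median of its group. CCL8 is at 21.0 CPM or more in every microglia sample and at 3.39 CPM or less elsewhere, XCL1 is at 32.3 CPM or more only in the 3 alveolar macrophage samples, and CCL5 is highest there and lowest in hippocampal tissue and hippocampal microglia.

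The first question the rule did not use was whether microglia of different regions differed. CCL5 differed between the 3 regions by the F test of edgeR's quasi-likelihood fit (Benjamini-Hochberg adjusted p = 0.00103), as did XCL1 with a value just under the threshold of 0.01 (adjusted p = 0.0084). CCL8 did not pass (adjusted p = 0.111). The F test called 236 of 11633 genes, or 2.03%, so regional calls were uncommon in these microglia. As a check of scale, the median log2 fold change of all tested genes was within 0.03 of 0 for each pair of regions.

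In pairs of regions, CCL5 was higher in frontal cortex than in hippocampal microglia, by 3.70 on the log2 scale (SE 0.60; Benjamini-Hochberg adjusted p = 0.00142 in edgeR's quasi-likelihood test). This pair of regions had few calls, 0.318% of genes in either direction. The log2 fold change between hippocampal and cerebellar microglia was -2.37 (SE 0.57, adjusted p = 0.0204), which did not pass, and 0.602% of genes did. Between cerebellar and frontal cortex microglia it was -1.33 (SE 0.54, adjusted p = 0.17), and 1.87% of genes passed. 3 pigs gave both frontal cortex and hippocampal microglia. In pig 12750 CCL5 was at 8.85 CPM in the frontal cortex and 1.53 in the hippocampus, in pig 12758 at 10.5 and 1.46, and in pig 12847 at 5.03 and 2.96. It was higher in the frontal cortex in 3 of 3 pigs, and higher in the cerebellum than in the hippocampus in 4 of 4 pigs. The frontal cortex was above the cerebellum in 5 of 6 pigs with both. The frontal cortex sample of pig 12599 held the highest CCL5 level, 55.1 CPM, and without it the log2 fold change between frontal cortex and hippocampus was 3.24. The adjusted p of that pair stayed between 0.000635 and 0.00467 when any 1 library was left out. The call was lost with the pig as a fixed replicate block in edgeR (log2 fold change 2.80, adjusted p = 0.123), with the pig as a random block in limma-voom (adjusted p = 0.0816) and with limma-voom without a block (adjusted p = 0.0822). The F test of CCL5 was lost in the same fits (adjusted p = 0.0365, 0.066 and 0.0732).

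XCL1 was found in 8 of 8 frontal cortex samples, 1 of 8 cerebellar samples and 0 of 8 hippocampal samples. Its mean in frontal cortex microglia was at least 13.8-fold above the floor of 3 counts per library in hippocampal microglia, where the adjusted p was 0.0126, short of the threshold (edgeR's quasi-likelihood fit, Benjamini-Hochberg). The same test gave adjusted p = 0.167 between cerebellum and frontal cortex and 0.0714 between hippocampus and cerebellum. The single cerebellar library with reads, that of pig 12583, weighed on these values: without it the adjusted p was 0.00323 between cerebellum and frontal cortex and 0.00664 between frontal cortex and hippocampus. In pigs with both regions, XCL1 was higher in the frontal cortex than in the cerebellum in 6 of 6 and than in the hippocampus in 3 of 3. The regional F test of XCL1 was at the edge of the threshold. It rose above 0.01 in 23 of the 31 fits that left out a library, to at most 0.0141, and with the pig as a fixed replicate block it was 0.274 (as a random block 0.0021).

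CCL8 tended the other way, with its highest values in the cerebellum. In the 6 pigs with both samples, the cerebellar level was above that of the frontal cortex each time. Pig 12599 had 48.5 CPM in the cerebellum and 21.0 in the frontal cortex, pig 12750 had 107 and 58.5, and pig 12847 had 99 and 39.7. Pig 12758 had 76.5 and 50.6 CPM, pig 12891 had 93.5 and 63.4, and pig 12902 had 83.6 and 66.3. The mean difference within these pigs was 0.81 (SD 0.39, n = 6 pigs) on the log2 CPM scale. Over all samples the log2 fold change was 0.70 (SE 0.23) and its adjusted p of 0.0802 by edgeR's quasi-likelihood test did not pass. With the pig as a random replicate block in limma-voom it passed (adjusted p = 0.00252, and 0.00676 for the F test), and with the pig as a fixed block in edgeR it did not (log2 fold change 0.82, adjusted p = 0.0397). CCL8 was also higher in the cerebellum than in the hippocampus in 4 of 4 pigs, with a log2 fold change of -0.40 for hippocampus against cerebellum over all samples (SE 0.23, adjusted p = 0.348). Frontal cortex and hippocampus differed by -0.29 (SE 0.23, adjusted p = 0.532).

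**Figure D2:**
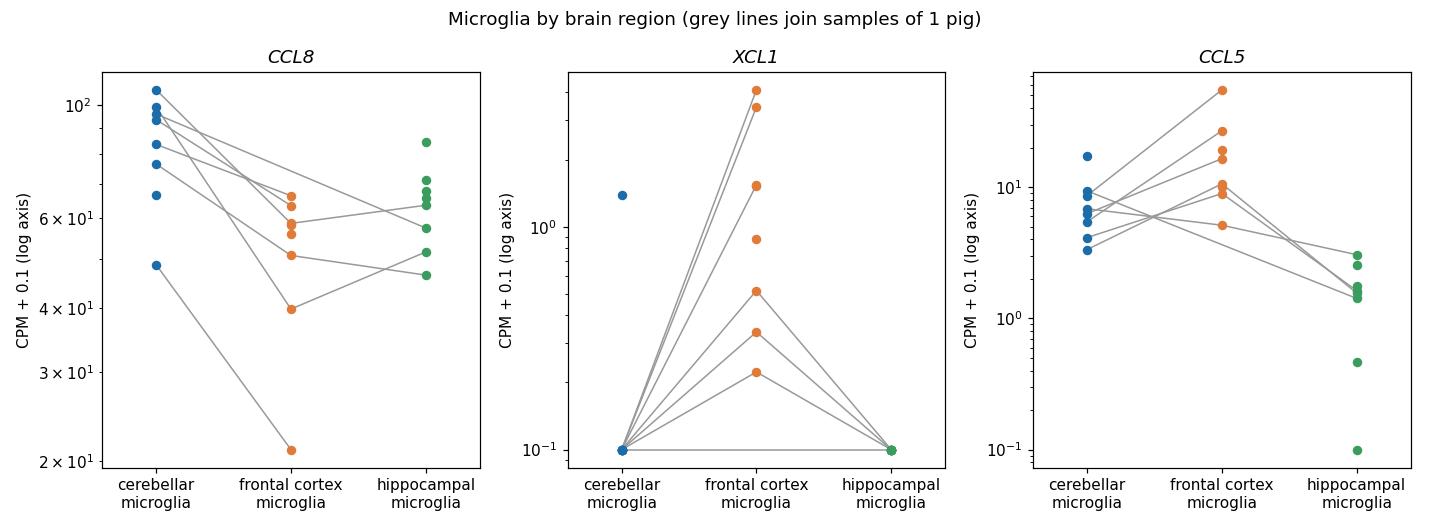
CCL8, XCL1 and CCL5 in the 24 microglia samples by brain region, as CPM + 0.1 on a log axis, with grey lines joining samples of the same pig. CCL8 falls from cerebellum to frontal cortex along all 6 lines between them, XCL1 lies above 0 in 8 frontal cortex samples and 1 cerebellar sample, and CCL5 is at 2.96 CPM or less in every hippocampal sample.

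Genes of T and NK cells, which make XCL1 and CCL5, were measured in the same samples. The 15 genes of the T and NK cell list summed to 1350 to 2370 CPM in alveolar macrophages, 121 to 235 CPM in cerebellar microglia, 119 to 184 in frontal cortex microglia, 153 to 221 in hippocampal microglia and 20.6 to 31.9 in tissue. CD3E, a subunit of the T cell receptor complex, had 135 to 363 CPM in the alveolar macrophage samples and 0 to 5.06 CPM in microglia, so T cell transcripts were present in the sorted lung cells. This was not particular to T and NK cell genes. The 9 B cell markers summed to 964 to 3050 CPM in alveolar macrophages and to 67.4 to 223 CPM in microglia, and the 3 neutrophil and monocyte markers to 282 to 647 CPM and to at most 5.11 CPM. Of the 15 T and NK cell genes, 13 passed the filter on low values only through the alveolar macrophages. Their lower level in microglia was thus favoured by the filter, and no count of calls is given for that contrast. XCL1 and CCL5 passed it in the same way.

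In the relations planned for this list, over 14 pigs with the mean of each region removed, neither XCL1 nor CCL5 rose with its sum. XCL1 had r = -0.40 (permutation p = 0.156, adjusted p = 0.427; Spearman rho = -0.55, permutation p = 0.0436, adjusted p = 0.262) and CCL5 had r = -0.13 (permutation p = 0.704, adjusted p = 0.905; rho = -0.30, permutation p = 0.298, adjusted p = 0.67). CCL8 had r = -0.01 (permutation p = 0.972, adjusted p = 0.972). Most of the summed level in microglia was that of PRF1 and CD2, which had medians of 112 and 32.1 CPM over the microglia and ranges that overlapped between the regions. The list was also summed without CD2, PRF1, NKG7 and CD247, a choice made after their values were seen, for which no test is given. The sum of the other 11 genes was 849 to 1630 CPM in alveolar macrophages. In frontal cortex microglia it was 2.77 to 33.9 CPM (median 10.5), in cerebellar microglia 2.58 to 20.4 (median 6.40) and in hippocampal microglia 0.175 to 4.28 (median 2.26), in the same order of medians as CCL5. The highest of these sums in the frontal cortex was in pig 12599, which also had the highest CCL5 and XCL1, and the lowest in the hippocampus was in pig 12817, which had no CCL5 counts.

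Over the 24 microglia samples the log2 level of CCL5 had a Pearson r of 0.85 with the log2 sum of these 11 genes, XCL1 had r = 0.72 and CCL8 had r = -0.25. These samples share pigs and differ in region. With the mean of each region removed and values averaged per pig, r was 0.66 for CCL5, 0.60 for XCL1 and -0.31 for CCL8 over 14 pigs. For XCL1 and CCL5 these signs are opposite to those with all 15 genes, so the direction depended on the 4 genes left out. Of the 15 single genes of the list 2 passed the regional F test, where 2.03% of all tested genes did. They were CD3D and ZAP70, which act in T cell receptor signalling (adjusted p = 0.00133 and 0.00788, edgeR's quasi-likelihood test). The 2 differed in regional order. CD3D had a median of 2.09 CPM in frontal cortex, 0.599 in cerebellar and 0 in hippocampal microglia. ZAP70 was highest in the cerebellum, with medians of 0.456 CPM there, 0.273 in frontal cortex and 0 in hippocampal microglia. Of the 9 B cell markers 2 passed, PAX5 and FCRL1 (adjusted p = 0.00964 and 0.00733, edgeR), where 2.03% of all tested genes did. Their regional orders differed. PAX5 had medians of 0.362 CPM in frontal cortex, 0.32 in cerebellar and 0.0157 in hippocampal microglia. FCRL1 was lowest in the frontal cortex, with medians of 20.9 CPM there, 41.4 in cerebellar and 28.6 in hippocampal microglia. Whether T or NK cells in the sorted fractions supplied the CCL5 and XCL1 reads was not tested.

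**Figure D3:**
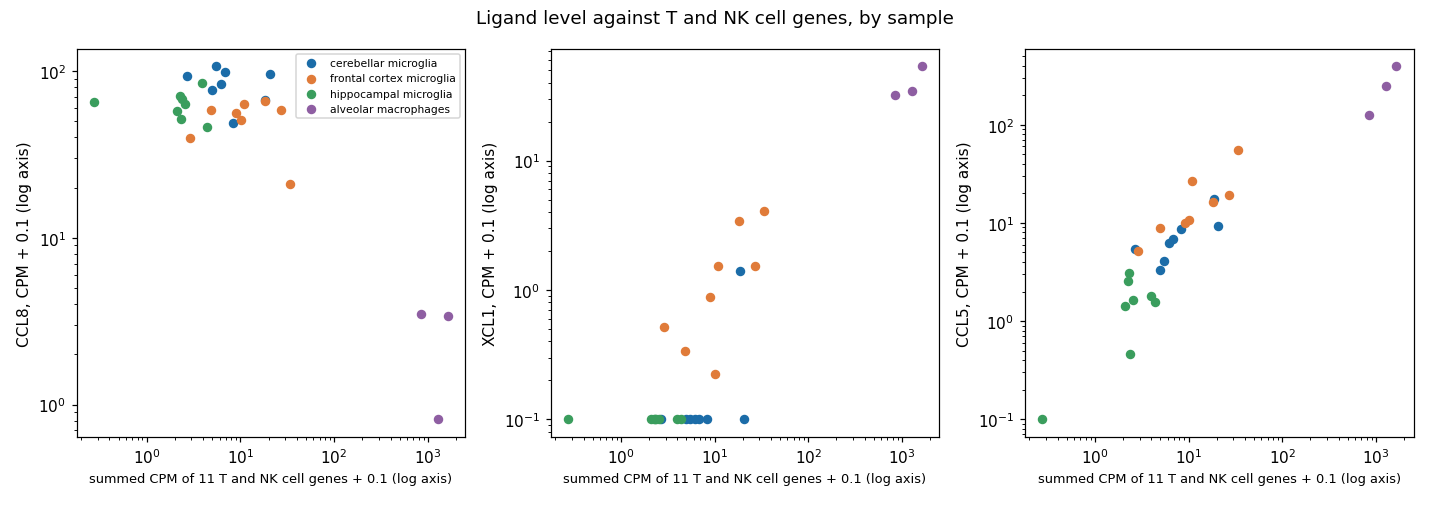
Level of each ligand against the summed level of 11 T and NK cell genes, in the 24 microglia and 3 alveolar macrophage samples, all as CPM + 0.1 on log axes. The 11 genes were chosen after the values were seen. They, XCL1 and CCL5 passed the filter on low values only through alveolar macrophages (sums of 849 to 1630 CPM). Their high place there was thus favoured by the filter and is not read as a relation. Within microglia, medians of CCL5 and of the sum rise from hippocampus (sums up to 4.28 CPM) through cerebellum to frontal cortex. XCL1 is at 0 in 15 microglia samples, and CCL8 is low only in alveolar macrophages.

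The planned relations over 14 pigs, with the region mean removed, gave no call. They set each ligand against 5 gene lists (all 15 T and NK cell genes, border macrophage markers, other brain cell markers, NF-kB and interleukin 1 genes, and early response genes) and the ligands against each other, 18 relations in all. The smallest p among the Pearson coefficients was that of XCL1 with other brain cell markers (r = 0.61, permutation p = 0.0196, adjusted p = 0.353; Spearman rho = 0.74, permutation p = 0.00322, adjusted p = 0.058), and r was 0.46 without pigs 12583 and 12599. XCL1 and CCL5 had r = 0.35 (permutation p = 0.142, adjusted p = 0.427) and rho = 0.52 (p = 0.0587, adjusted p = 0.264). With the region means kept in, XCL1 and CCL5 had r = 0.75 (permutation p = 0.00098, adjusted p = 0.0176) and rho = 0.92 (p = 2e-05, adjusted p = 0.00036), which includes the difference between regions that both genes share. In the same relations, XCL1 with all 15 T and NK cell genes had r = -0.72 (permutation p = 0.00384, adjusted p = 0.0346) and rho = -0.66 (p = 0.0134, adjusted p = 0.121), and r was -0.54 without pigs 12707 and 12720.

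The sample with the lowest CCL8 of all microglia, the frontal cortex of pig 12599 (21.0 CPM), also had the highest sum of the 11 other brain cell markers, 1990 CPM against 371 to 1370 in the other frontal cortex samples. Over pigs, CCL8 had r = -0.47 with this list (permutation p = 0.0838, adjusted p = 0.427; rho = -0.01, permutation p = 0.988, adjusted p = 1), and r was 0.61 without pigs 12583 and 12599 (permutation p = 0.0355, adjusted p = 0.213), so the negative coefficient rested on these 2 pigs. Without the frontal cortex sample of pig 12599, the adjusted p of CCL8 between cerebellum and frontal cortex was 0.111 (edgeR's quasi-likelihood test). The log2 fold change was then 0.58. Early response genes had higher sums in the cerebellum, where CCL8 was highest: a median of 283 CPM (range 212 to 403) against 200 (145 to 262) in the frontal cortex and 203 (186 to 231) in the hippocampus. Of the 9 genes of that list 2 passed the regional F test, where 2.03% of all tested genes did. They were the transcription factors EGR2 and KLF2 (adjusted p = 0.00066 and 0.00338, edgeR's quasi-likelihood test). Over pigs, CCL8 had r = 0.30 with this list (permutation p = 0.307, adjusted p = 0.614). The part of these genes in the CCL8 levels was otherwise not tested. Border macrophage markers did not share 1 regional order. CD163, MRC1 and F13A1 had medians of 2.21, 0.518 and 0.777 CPM over the microglia. F13A1 had the same order of regional medians as CCL8. They were 1.08 CPM in the cerebellum, 0.777 in the hippocampus and 0.304 in the frontal cortex. CD163 and MRC1 had their highest medians in the frontal cortex (2.6 and 0.621 CPM, against 1.87 and 0.518 in the cerebellum). STAB1 had its lowest median in the cerebellum (93.3 CPM, against 180 in frontal cortex). Over pigs the list had r = -0.01 with CCL8 (permutation p = 0.959, adjusted p = 0.972). Most of the list's sum was STAB1 (median 148 CPM over the microglia), so this r says little about the other markers.

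Genes with the most similar profile differed between the ligands. Likeness was the Pearson r of log2 CPM with the 3397 tested genes that have a symbol in the supplementary tables, given as a description. Those tables include the study's lists for microglia against macrophages and against tissue. Over all 31 samples, r also follows these contrasts, by which CCL8 and XCL1 were chosen. CD3E and KLRK1, like XCL1 and CCL5, passed the filter on low values only through alveolar macrophages. Nothing is therefore read from the 31-sample values. Over all 31 samples, CCL8 was most like DISC1, NOD1, SLC2A5, SIRPB2 and RGS10 (r = 0.98 each). NOD1 is an intracellular sensor of bacterial cell wall, and SLC2A5 a fructose transporter. XCL1 was most like CD244 (0.92), KLRK1 (0.92), UBASH3A (0.91), CD3E (0.90) and CD96 (0.89), all of them T or NK cell genes. CCL5 was most like TBX21 (0.89), FASLG (0.87), ZNF683 (0.87), SPN (0.86) and DUSP2 (0.86). TBX21 is the transcription factor of type 1 T cells and FASLG the death ligand of cytotoxic cells. XCL1 and CCL5 had r = 0.82 with each other, whereas CCL8 had r = -0.31 with XCL1 and 0.04 with CCL5.

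Within microglia, with the region mean removed (24 samples), the nearest genes changed. CCL8 was then most like IER3 (0.83), an early response gene that limits cell death, followed by CLSPN (0.75), ARMCX1 (0.73), TNFSF14 (0.73) and PTGER2 (0.70). XCL1 was most like CD69 (0.74), CD3E (0.74), CD96 (0.71), PTGFRN (0.66) and SH2D2A (0.66), of which CD69 is an activation marker of lymphocytes. XCL1 was at 0 counts in 15 of the 24 samples and CD3E in 13, so the values for XCL1 rest on few libraries. The samples also share pigs. CCL5 was most like ODF2L (0.79), DUSP2 (0.77), PAFAH2 (0.76), CAPN2 (0.76) and INF2 (0.75). XCL1 and CCL5 had r = 0.43 here.

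The other chemokine ligands with an identifier fell on both sides. Of 8, 5 were over 3-fold lower in microglia than in alveolar macrophages at adjusted p under 0.01 (CCL3L1, CCL4, CCL23, CCL24 and PPBP) and 2 were over 3-fold higher (CXCL10 and CXCL12), where 10.1% and 12.2% of all tested genes were. Of the 5, 4 (all but CCL23) passed the filter on low values only through alveolar macrophages. The filter thus favoured a lower level in microglia, so nothing is read from these counts. CXCL10, an interferon-induced ligand of CXCR3, resembled CCL8: it had means of 79.1 CPM in frontal cortex, 61.4 in cerebellar and 55.5 in hippocampal microglia, and of 3.87 in alveolar macrophages and 1.83 in tissue. CXCL12 was a tissue transcript, with 28 CPM ± 3.29 (SD, n = 4) in hippocampal tissue, 1.44 to 4.99 CPM on average in microglia and 0 in all 3 macrophage samples. CXCL16, the ligand of CXCR6, had a log2 fold change of 0.87 (SE 0.21) between microglia and alveolar macrophages, under the 3-fold limit. CCL4, another CC chemokine that attracts leukocytes, was nearest to the regional pattern of CCL5, with means of 12.4 CPM in frontal cortex, 7.36 in cerebellar and 2.57 in hippocampal microglia. Its regional F test did not pass (adjusted p = 0.0163, edgeR's quasi-likelihood test), nor did that of the other 7, so 0 of the 8 were called at 0.01 by edgeR, where 2.03% of all genes were. At an unadjusted p under 0.05, 2 of the 8 passed, CCL4 and CCL24. In the edgeR tests of pairs of regions, 2185 to 2306 of the 11633 genes were under that limit. Nothing is therefore read from the 2. DESeq2 called 1 of the 8, CCL4, and it also called more genes in all than edgeR.

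**Figure D4:**
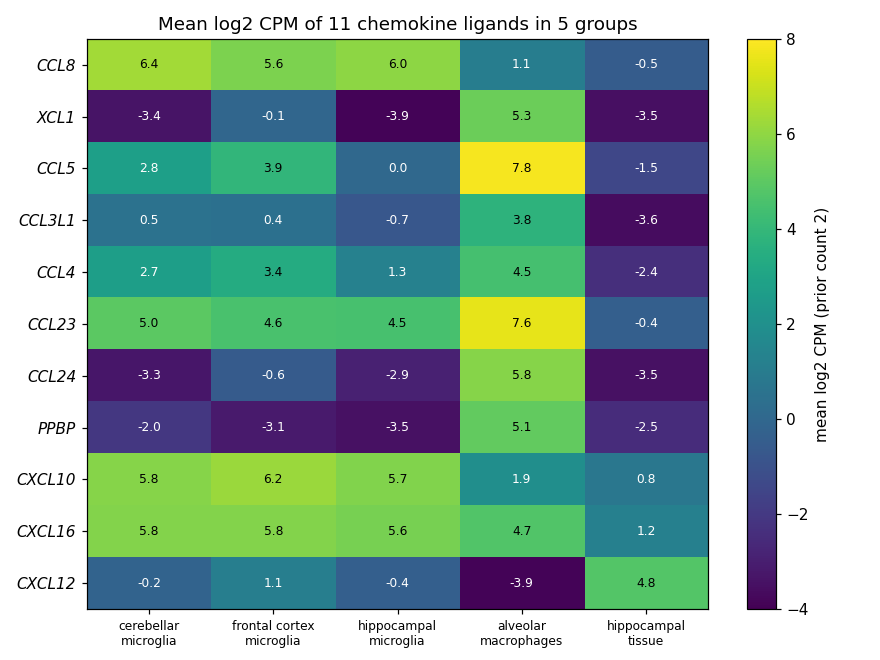
Mean log2 CPM (prior count 2) of CCL8, XCL1, CCL5 and 8 other chemokine ligands in the 5 groups; colours and printed values are the same quantity. Values are read along a row only, since CPM does not account for gene length: CCL8 and CXCL10 are highest in microglia, CXCL12 in hippocampal tissue, and XCL1, CCL5, CCL3L1, CCL4, CCL23, CCL24 and PPBP in alveolar macrophages.

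Receptors were measured beside their ligands. Of 14 chemokine receptor genes, 9 were over 3-fold lower in microglia than in alveolar macrophages and 1 was over 3-fold higher at adjusted p under 0.01, against 10.1% and 12.2% of all tested genes. The 9 passed the filter on low values only through alveolar macrophages, so their direction was favoured by it and nothing is read from the count. In the regional F test the lowest adjusted p among them was 0.0291 (CXCR3, edgeR's quasi-likelihood test), so none of the 14 was called there. CCR1, which binds CCL5, had 61.1 CPM ± 8.15 in microglia, 86.1 ± 33.8 in alveolar macrophages and 1.49 ± 0.276 in tissue. CCR2, the main receptor of monocytes for CCL2, had 9.66 CPM ± 5.00 in microglia and 146 ± 18.6 in alveolar macrophages. CX3CR1, the microglial receptor of fractalkine, was the receptor over 3-fold higher in microglia, with 767 CPM ± 162 against 7.02 ± 6.86.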

How the data were processed

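RNA-seq counts of 31 samples from 15 pigs were used. The authors trimmed paired-end reads with BBtools, aligned them with HISAT2 to Sscrofa11.1 (Ensembl annotation) and deposited estimated counts per gene from StringTie, as whole numbers without normalization, for 31907 genes. Libraries were stranded, and the strand setting of the counting is not given in the sources used here. How reads were divided between related chemokine genes was not tested.

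A gene was kept where some group had over 10 CPM in each of its samples (11633 genes). Expected counts as deposited were scaled with TMM factors, and a robust quasi-likelihood model of the 5 groups was fitted in edgeR 4.0.16 (R 4.3.3), with Benjamini-Hochberg adjusted p under 0.01. Standard errors come from the F statistic. Levels are CPM over all counts with TMM factors, and log2 CPM has a prior count of 2. Genes named for likeness are the 5 with the highest Pearson r to each ligand. Permutation tests (two-sided, 100000 resamples) were run in Python 3.11.15 (numpy 2.4.6, scipy 1.17.1). The fits were tested on simulated data. Alternatives were RLE or no factors, filterByExpr, no filter, DESeq2 1.42.0, limma-voom (limma 3.58.1), only the groups compared, an adjusted p of 0.05, the pig as a replicate block and each sample left out.

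Pigs are counted and samples paired by the tag numbers in the labels; the paper's methods give another number of pigs, and the difference was not resolved. Deviations from the group means correlated by 0.0791 on average between samples of the same pig (25 pairs, -0.374 to 0.434) and by -0.00499 between different pigs (347 pairs), and limma estimated a within-pig correlation of 0.205. No 2 samples of a group were copies (lowest chi-square per degree of freedom 29.6). The ligands, gene lists and tests were chosen with earlier results of these data known. CCL2 and CXCL8 were not analysed here, and some items are not reported here. RefSeq positions and sequences are of Sscrofa11.1.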

Additional observations from a re-analysis of the deposited data

Results flagged for a closer look

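For the 11 ligands, 43 sets of 4 to 8 samples were searched for a highest or lowest sample that stood apart by Dixon's criterion, and 12 did. For normally distributed values chance alone meets it in about 1 set in 20. That rate does not hold for these CPM values, many of them 0. A set with a single sample above 0 meets the criterion in any case. CCL5 stood out in the frontal cortex microglia of pig 12599 (55.1 CPM, next 26.8), in the cerebellar microglia of pig 12583 (17.3 CPM, next 9.27) and in the hippocampal tissue of pig 12847 (1.07 CPM, next 0.261). XCL1 stood out in the same cerebellar sample of pig 12583 (1.29 CPM, the others at 0) and in the same tissue sample of pig 12847 (0.123 CPM, or 4 counts, the others at 0). The 11 T and NK cell genes summed to 18.4 CPM in that cerebellar sample (range of the group 2.58 to 20.4) and to 3.34 CPM in that tissue sample (range 1.80 to 3.34), and their part in these values was not tested. CCL24 was at 0.153 CPM (5 counts) in the tissue of pig 12847 and CCL3L1 at 0.0869 CPM (3 counts) in that of pig 12829, with the others at 0. CCL23 was at 53.7 CPM in the hippocampal microglia of pig 12847 (next 24.5). CXCL10 reached 166 CPM in the frontal cortex microglia of pig 12902 (next 84.1). CXCL16 reached 77.7 CPM in the cerebellar microglia of pig 12891 (next 57.1). PPBP was at 1.38 CPM in the cerebellar microglia of pig 12599 (next 0.633) and at 0.649 CPM in the hippocampal microglia of pig 12750, with the others at 0. None of the 12 values belonged to CCL8.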

How the results depend on the processing

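Of 776 values recomputed under another setting, 719 were counted as the same, and the cause of the other changes was not tested. For a test, this meant the same side of the threshold and, for a pair, the same direction. For a fold change without a test, it meant a shift below the largest SD of the groups compared, and for a count a similar number. Most of the 776 came from fits that left out a single library. With the pig as a fixed replicate block in edgeR (12 residual degrees of freedom), the call of CCL5 between frontal cortex and hippocampus (adjusted p = 0.123) and the regional F tests of CCL5 (0.0365) and XCL1 (0.274) were lost, the XCL1 difference between hippocampus and cerebellum changed sign with adjusted p = 1, and 85 genes passed the regional F test in place of 236. With the pig as a random replicate block in limma-voom, CCL8 passed between cerebellum and frontal cortex (0.00252) and in the F test (0.00676), XCL1 passed between cerebellum and frontal cortex (0.00487) and between frontal cortex and hippocampus (0.0064), CCL5 lost both calls (0.0816 and F test 0.066), and 385 genes passed. With limma-voom alone, XCL1 passed in the same pairs (0.0087 and 0.00614) and CCL5 lost both calls (0.0822 and 0.0732). DESeq2 called XCL1 between frontal cortex and hippocampus (8.45e-05), CCL5 between hippocampus and cerebellum (0.00128), 1 of the 8 other ligands and 790 genes. With only the groups compared, the F test of XCL1 was lost (0.0275), 1 other ligand and 141 genes passed. At an adjusted p of 0.05, XCL1 between frontal cortex and hippocampus (0.0126), CCL5 between hippocampus and cerebellum (0.0204), 1 other ligand and 927 genes passed. With each library left out, adjusted p ranged from 0.00323 to 0.242 (XCL1, cerebellum against frontal cortex), 0.00664 to 0.0277 (XCL1, frontal cortex against hippocampus) and 0.000517 to 0.0141 (XCL1, F test), other ligands called from 0 to 1, and genes called from 154 (without the cerebellar sample of pig 12750) to 335. The fitted log2 fold change of XCL1 between microglia and alveolar macrophages, -8.63, rests on regions at 0 and is no bound: it was -13.96 with the fixed block and -10.41 to -8.36 with a library left out, lowest without the cerebellar sample of pig 12583. Without that sample, XCL1 is at 0 in cerebellum and hippocampus, so that pair has no value, and hippocampal microglia against tissue was not fitted for XCL1. RLE factors and no factors shifted the median of all genes between hippocampal microglia and tissue by -0.213 and 0.224 on the log2 scale, and no direction of a member changed with them. XCL1 in microglia is limited by depth, with at most 104 counts in a sample. The main fit has no term for the pig and treats samples of the same pig as independent. It pools the spread over all groups, so its regional p-values mix spread within and between animals. Only 3 to 6 pigs gave a pair of regions.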
